A study of Mus musculus with 8 samples.

Results

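The genes described here are 10 inflammatory cytokines and chemokines, chosen by name with earlier results of these data known: Tnf, Il1b, Il18, Il6, Ccl2, Ccl7, Ccl3, Ccl5, Cxcl9 and Cxcl10. The array carried 13 probes for these 10 genes, of 56605 probes and 22911 named genes in all. Of the 10, 7 could be measured, with at least 1 probe called well above background on each array of some group, whereas the probes of Il6, Ccl3 and Ccl7 were read well above background on no array. RNA from whole mouse liver was hybridised to 8 one-colour arrays in 4 groups of 2. The groups were males with a liver-specific Bcl-6 deficiency (KO), wild-type males (WT), KO females and WT females, all 10 to 11 weeks old. The promoter that drove the deletion, the strain and the number of animals behind each array are not given in the sources used here. The series asks how Bcl6, a transcriptional repressor best known from germinal-centre B cells, bears on differences between male and female liver. For each cytokine this gives the KO-minus-WT difference in each sex, the male-minus-female difference in each genotype, and the interaction of sex and genotype.

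TNF, IL-1 beta, IL-18 and IL-6 are secreted by activated immune cells and, in liver, above all by resident macrophages (Kupffer cells) and infiltrating monocytes. TNF and IL-1 beta signal through their receptors to the transcription factor NF-kB. IL-6 acts on hepatocytes through STAT3 to raise acute-phase proteins, and IL-18 is made as a precursor that caspase-1 cuts. Chemokines guide leukocytes: CCL2 and CCL7 attract monocytes that carry CCR2, CCL3 and CCL5 attract T cells and monocytes, and CXCL9 and CXCL10 are induced by interferon gamma and attract T and NK cells that carry CXCR3. In whole liver, fewer cells of a type and less RNA per cell cannot be told apart.

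The 250 bases before the start of the gene are shown for Tnf, Il1b and Cxcl9, which passed the test in at least 1 comparison below, and for Cxcl10, the relative of Cxcl9 that passed in none. Capitals mark matches to motifs. The sequences are those of RefSeq on GRCm38.p6, 5′ to 3′ on the minus strand, at chr17:35202008-35202257 for Tnf, chr2:129371140-129371389 for Il1b, chr5:92328080-92328329 for Cxcl9 and chr5:92348890-92349139 for Cxcl10.
Tnf: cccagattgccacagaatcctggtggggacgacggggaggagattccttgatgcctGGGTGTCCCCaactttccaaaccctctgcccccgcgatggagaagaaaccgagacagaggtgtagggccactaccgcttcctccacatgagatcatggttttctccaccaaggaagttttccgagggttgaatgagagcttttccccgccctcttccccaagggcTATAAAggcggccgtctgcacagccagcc
Il1b: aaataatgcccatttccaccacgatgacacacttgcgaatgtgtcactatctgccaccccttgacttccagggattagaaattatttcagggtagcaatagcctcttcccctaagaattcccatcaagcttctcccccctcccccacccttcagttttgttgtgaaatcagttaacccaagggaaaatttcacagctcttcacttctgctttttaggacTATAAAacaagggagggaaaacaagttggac
Cxcl9: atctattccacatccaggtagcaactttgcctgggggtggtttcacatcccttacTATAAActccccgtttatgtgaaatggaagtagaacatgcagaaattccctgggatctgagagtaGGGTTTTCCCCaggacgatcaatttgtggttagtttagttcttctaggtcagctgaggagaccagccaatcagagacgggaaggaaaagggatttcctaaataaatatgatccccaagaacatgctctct
Cxcl10: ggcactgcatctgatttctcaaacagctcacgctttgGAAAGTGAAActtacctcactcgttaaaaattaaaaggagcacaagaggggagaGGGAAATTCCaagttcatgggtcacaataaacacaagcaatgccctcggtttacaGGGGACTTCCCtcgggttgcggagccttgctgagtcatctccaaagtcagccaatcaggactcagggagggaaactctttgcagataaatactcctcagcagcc
The motifs searched, on both strands, were GGGNNNNNCC for NF-kB, TTCNNNGAA for STAT factors, GAAANNGAAA for interferon-stimulated response elements (ISRE), and the TATA box TATAAA. Of 32851 promoter windows of this length, 45.8% held the NF-kB motif, 7.02% the STAT motif, 2.98% the ISRE motif and 12.4% the TATA motif. Tnf held an NF-kB match 194 to 185 bases before the start and a TATA match 29 to 24 bases before it. Il1b held only a TATA match, 31 to 26 bases before the start. Cxcl9 held overlapping NF-kB matches 130 to 120 bases before the start and a TATA match 195 to 190 bases before it. Cxcl10 held NF-kB matches at 159 to 150 and, overlapping each other, at 104 to 94 bases, and an ISRE match at 213 to 204 bases. No match of 1 motif overlapped a match of another. Windows were found for 7 of the 10 genes. In the other 3 of these, Il6 held NF-kB matches, Il18 a TATA match and Ccl3 no match to any of the 4 motifs, and no STAT match lay in any of the 7.

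Arrays were of like quality. Between 33677 and 36459 of 59305 spots other than controls were read well above background on each, and 0 were saturated. Levels are log2 processed signals minus the 75th percentile of the array, so that 0 is the brightness of a probe at that percentile, and they are compared within a probe only. Differences are KO minus WT or males minus females on that log2 scale, with the standard error (SE), and were tested with limma over 26556 genes and unnamed transcripts at an adjusted p under 0.05. With 2 arrays a group, the number of arrays limits the precision, and the p-values measure the spread between these samples, which may be technical. The labels do not say that each array came from an animal of its own. The slide held the females in one row and the males in the other. Comparisons between sexes are therefore also comparisons between rows, which cannot be told apart, while KO and WT arrays shared each row. The single Bcl6 probe stood at 4.49 and 4.01 in male KO and 3.97 and 2.91 in male WT livers. In females it stood at 1.62 and 4.41 in KO and 2.95 and 0.86 in WT livers. It was not lower in either KO group, with a KO-minus-WT difference of 0.81 ± 1.06 in males (limma adjusted p = 0.676) and 1.11 ± 1.06 among females (limma adjusted p = 0.556). Whether this probe lies inside the deleted stretch is not stated, so it checks no label, and KO and WT stand throughout for the labels. Marker genes of hepatocytes (12 of 12), macrophages and Kupffer cells (14 of 14) and endothelial cells (8 of 8) were all measured.

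In KO males Tnf fell and Ccl2 and Cxcl9 rose, 3 of the 7 measured genes, where 10.7% of all features tested passed in that comparison (5.77% higher and 4.93% lower in KO). In KO females 1 of the 7 passed, Il1b, which rose, where 5.93% of all features passed. The KO arrays lay above the WT arrays without overlap for 4 of the 7 in males and 3 in females, as for 27.4% and 27.9% of all features, and below for 1 in each, as for 34.6% and 27.5%. Non-overlap of 2 arrays against 2 is thus common here. The median KO-minus-WT difference of the 7 genes was 0.43 in males and 0.45 in females, against a median over all features of -0.04 and 0. Over both sexes together, Tnf fell and Il1b, Ccl2 and Cxcl9 rose, 4 of the 7, where 19.8% of all features passed. Between the sexes, Tnf was higher in males than in females among WT livers, 1 of 7, where 0.964% of all features passed. Il1b was lower in males than in females among KO livers, 1 of 7, where 0.0828% passed. The interaction of sex and genotype passed for 0 of the 7 by limma, where 0.192% of all features passed, with Tnf and Il1b at an unadjusted p under 0.05. Of the 26556 features, 2221 were under that unadjusted p in the interaction, 7226 in KO against WT males and 6611 in KO against WT females. KO minus WT in males and males minus females in WT share the male WT arrays, so their values for a gene are not independent.

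**Figure D1:**
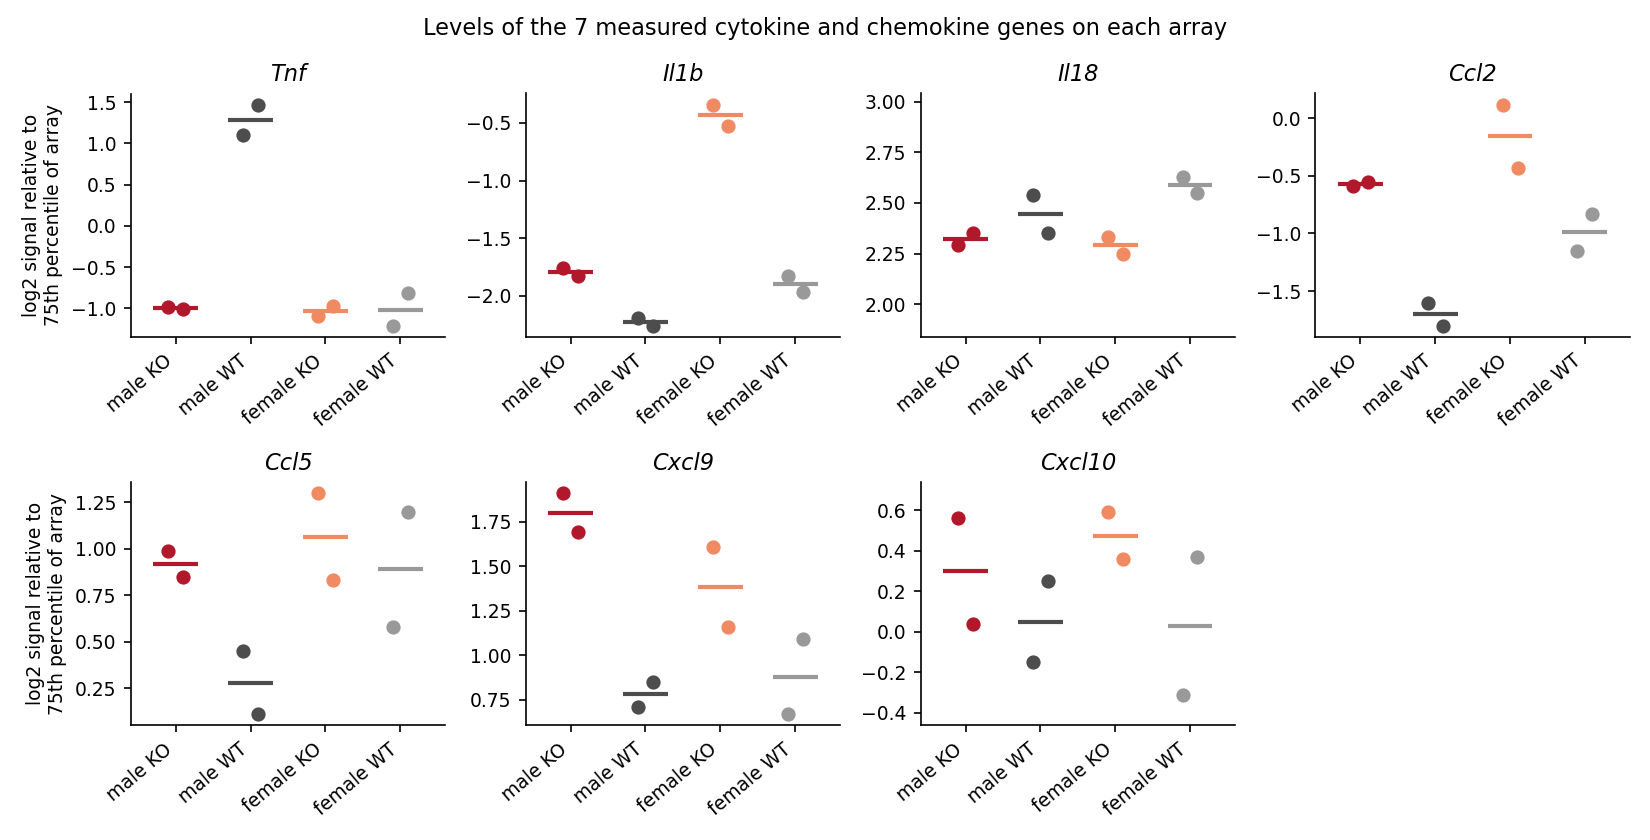
Level of each of the 7 measured genes on each of the 8 arrays (points) with the group mean (bars), as log2 signal relative to the 75th percentile of the array, each panel with its own range. Both male WT arrays stand above the other 6 for Tnf, both female KO arrays stand above the other 6 for Il1b, and the KO arrays lie above the WT arrays for Ccl2 and Cxcl9.

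Tnf (NCBI Gene 21926, chromosome 17) encodes tumour necrosis factor. The probe that represents it, A_55_P2740937, stood at -0.98 and -1.01 in male KO livers, against 1.1 and 1.47 in male WT livers. The female arrays gave -1.09 and -0.97 in KO livers, against -1.21 and -0.82 in WT livers. The pair of male WT arrays was high, and all other arrays lay within one narrow range in which the groups overlapped. In KO males Tnf fell by 2.28 ± 0.18, to a level 4.85-fold lower than in WT males (limma adjusted p = 0.00155, n = 2 arrays each). In females the difference was -0.02 (95% confidence interval -0.46 to 0.42, limma adjusted p = 0.956). Among WT livers males stood 2.29 ± 0.18 above females, or 4.91-fold (limma adjusted p = 0.00631). Among KO livers the males-minus-females difference was 0.04 (95% confidence interval -0.40 to 0.48, limma adjusted p = 0.993). The test of whether the KO-minus-WT difference itself differed between males and females gave -2.26 ± 0.25 and missed the threshold (limma unadjusted p = 0.000105, adjusted p = 0.0517). That interaction was on the other side of the threshold without male WT replicate 1 (-2.44, adjusted p = 0.038), without male WT replicate 2 (-2.07, adjusted p = 0.0469) and without female WT replicate 2 (-2.45, adjusted p = 0.0167). The fall in males passed in 17 of 17 alternative settings, at -2.46 to -1.63. The call for WT males over WT females passed in 16 of 17, and was lost when only those 4 arrays were fitted (limma adjusted p = 0.109).

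The Tnf result rests on 1 of the gene's 2 probes. The processed signal of A_55_P2740937 was 68.3 and 67.0 in male KO, 333 and 352 in male WT, 67.3 and 74.6 in female KO and 65.0 and 89.5 in female WT livers. The other probe, A_51_P385099, gave 4.61 and 5.12 in male KO, 2.28 and 2.25 in male WT, 4.10 and 4.03 in female KO and 1.92 and 4.27 in female WT livers. It was read well above background on no array, so it gives no direction to set beside the first. The sequences of both probes were not used here, so which of them reads the Tnf transcript was not tested.

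**Figure D2:**
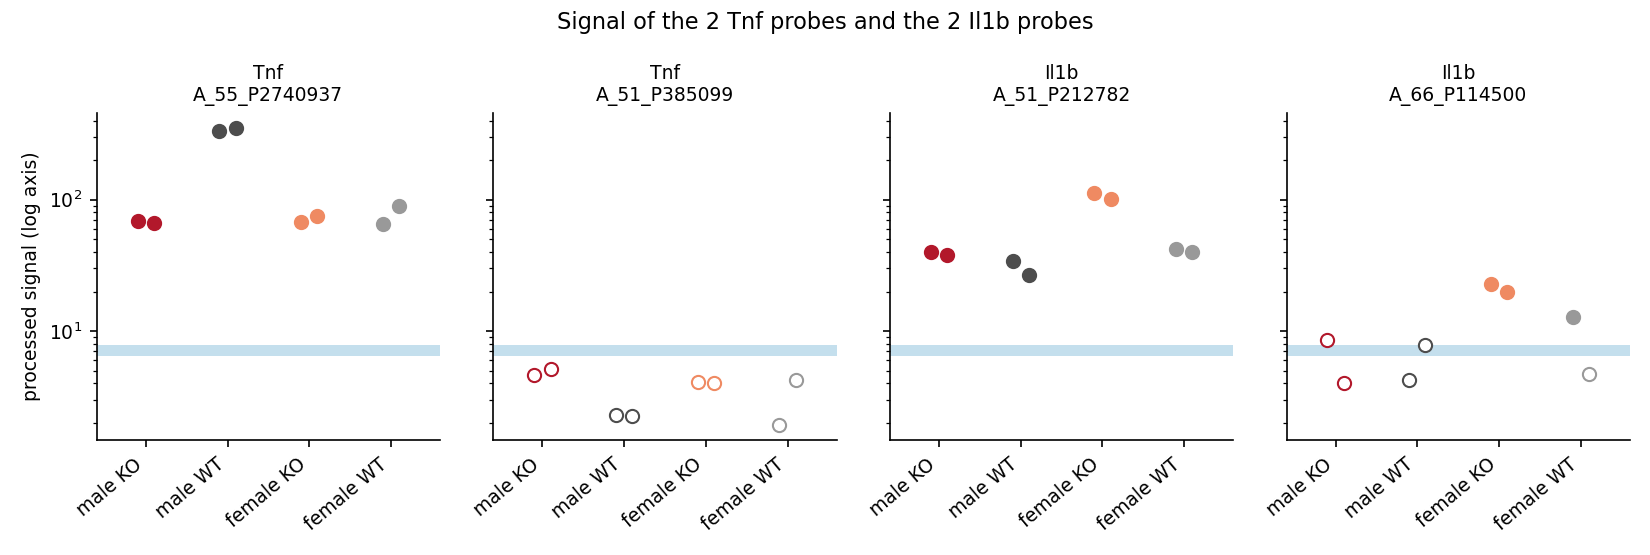
Processed signal on a log axis of the pair of Tnf probes and the pair of Il1b probes on each array, filled where read well above background and open where not, with the range of the arrays' lowest signals read well above background (6.49 to 7.81) as a band. For Tnf the first probe is high in male WT livers and the second lies under the band on all 8 arrays, while both Il1b probes are highest in female KO livers.

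Ltb and Lta lie on either side of Tnf on chromosome 17. Ltb, which encodes lymphotoxin beta, a membrane-bound relative of TNF, stood at -0.06 and -0.55 in male KO livers and -1.09 and -1.52 in male WT livers. It rose by 1.01 ± 0.23 in KO males (limma adjusted p = 0.0436), opposite to Tnf, and passed in 7 of 17 alternative settings, with adjusted p between 0.0273 and 0.177. Leaving out any of the 8 arrays ended its call (0.76 to 1.25). Lta, the other neighbour, was not well above background. Of the 6 measured genes near Tnf, Ltb alone passed in males (16.7%, against 10.7% of all features). In females 0 passed by limma, where 5.93% of all features passed. There 1 of the 6 had an unadjusted p under 0.05, as had 6611 of the 26556 features.

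Il1b (NCBI Gene 16176, chromosome 2) encodes IL-1 beta. It stood at -1.76 and -1.83 in male KO livers, against -2.19 and -2.26 in male WT livers. Among females it was -0.34 and -0.53 in KO livers, against -1.83 and -1.97 in WT livers. Both female KO arrays were far above the rest, and in each sex the KO arrays lay above the WT arrays. In KO females Il1b rose by 1.46 ± 0.11, or 2.76-fold (limma adjusted p = 0.00222). In males the difference was 0.43 (95% confidence interval 0.15 to 0.71), short of the threshold (limma adjusted p = 0.0698). Over both sexes it was 0.95 ± 0.08 (limma adjusted p = 0.00134). Among KO livers the males-minus-females difference was -1.36 ± 0.11 (limma adjusted p = 0.0273), and among WT livers it was -0.32 (95% confidence interval -0.60 to -0.04, adjusted p = 0.231). The interaction was -1.04 ± 0.16 and missed the threshold (limma unadjusted p = 0.000638, adjusted p = 0.144).

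The lower Il1b in KO males than in KO females passed in 7 of 17 alternative settings. It was lost without male KO replicate 2 (-1.32, adjusted p = 0.0567), without female KO replicate 1 (-1.26, adjusted p = 0.0616), and without either WT array of either sex (-1.36, adjusted p between 0.076 and 0.133). It was also lost with normexp background correction (-0.66, limma adjusted p = 0.0792), with no filter on dim probes (adjusted p = 0.141), with the mean of the kept probes (adjusted p = 0.564) and when only those 4 arrays were fitted (adjusted p = 0.274). The rise in females passed in 16 of 17 alternatives, and was lost when the gene's kept probes were averaged (1.51, limma adjusted p = 0.0628). Its size fell to 0.78 with normexp, where it passed (limma adjusted p = 0.00123). Over both sexes Il1b gave 0.49 with normexp and lost its call with the mean of the probes (0.88, limma adjusted p = 0.0545). The second Il1b probe, A_66_P114500, had signals of 8.52 and 4.05 in male KO, 4.28 and 7.87 in male WT, 23.0 and 19.7 in female KO and 12.8 and 4.68 in female WT livers. It was well above background on both female KO arrays and on 1 female WT array, and its female difference of 1.55 ± 0.66 had the same sign as that of the brighter probe without passing (limma adjusted p = 0.379).

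Il18 (NCBI Gene 16173, chromosome 9), the precursor cytokine of the same family, stood at 2.29 and 2.35 in male KO livers, against 2.54 and 2.35 in male WT livers. In females it stood at 2.33 and 2.25 in KO livers, against 2.63 and 2.55 in WT livers. The female KO arrays lay below the female WT arrays, and the male groups touched. The difference was -0.12 in males (95% confidence interval -0.39 to 0.14, limma adjusted p = 0.521) and -0.30 among females (95% confidence interval -0.56 to -0.03, adjusted p = 0.161), and it did not pass over both sexes either (-0.21, adjusted p = 0.106). Il6 (NCBI Gene 16193, chromosome 5) had signals of 1.53 to 5.68 over its pair of probes and 8 arrays, well above background on none, so no level or fold can be given.

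Ccl2 (NCBI Gene 20296, chromosome 11) encodes the monocyte attractant that acts on CCR2. It stood at -0.59 and -0.55 in male KO livers, against -1.60 and -1.80 in male WT livers. Its female values were 0.12 and -0.43 in KO livers, against -1.15 and -0.83 in WT livers. All 4 KO arrays lay above all 4 WT arrays, as they did for 11.8% of all features. In KO males Ccl2 rose by 1.13 ± 0.21, or 2.19-fold (limma adjusted p = 0.0262). In females the difference was 0.83 (95% confidence interval 0.32 to 1.35) and missed the threshold (limma adjusted p = 0.0793). Over both sexes it was 0.98 ± 0.15 (limma adjusted p = 0.00896), past the threshold in 16 of 16 alternatives. The interaction was 0.30 (95% confidence interval -0.43 to 1.03, limma adjusted p = 0.83). The call in males alone was lost without male KO replicate 1 (1.15, adjusted p = 0.11), male KO replicate 2 (1.11, adjusted p = 0.122), male WT replicate 1 (1.23, adjusted p = 0.0685) or male WT replicate 2 (1.03, adjusted p = 0.12), and with no filter on dim probes (1.13, adjusted p = 0.0752). With normexp the difference was 0.63 in males and 0.60 over both sexes, past the threshold in both.

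Ccl7 (NCBI Gene 20306), which lies next to Ccl2 on chromosome 11 and also acts on CCR2, was called well above background on no array. Its signals were 3.37 and 1.88 in male KO, 1.79 and 1.94 in male WT, 9.04 and 7.34 in female KO and 1.92 and 2.48 in female WT livers. Both female KO signals were higher than the rest and above the lowest signals that counted as well above background on their arrays (7.21 and 6.49), although the spots themselves did not meet that call. No fold is given, since both groups count as below background. Ccl3 (NCBI Gene 20302, chromosome 11) had signals of 1.67 to 5.44, well above background on no array.

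Ccl5 (NCBI Gene 20304, chromosome 11), an attractant of T cells and monocytes, stood at 0.99 and 0.85 in male KO livers, against 0.45 and 0.11 in male WT livers. In females it stood at 1.30 and 0.83 in KO livers, against 0.58 and 1.2 in WT livers. The male groups did not overlap and the female groups did. Neither difference passed: 0.64 in males (95% confidence interval 0.01 to 1.28, limma adjusted p = 0.181) and 0.17 among females (95% confidence interval -0.46 to 0.81, adjusted p = 0.72).

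Cxcl9 (NCBI Gene 17329, chromosome 5), a ligand of CXCR3, stood at 1.91 and 1.69 in male KO livers, against 0.71 and 0.85 in male WT livers. The female values were 1.61 and 1.16 in KO livers, against 0.67 and 1.09 in WT livers. All 4 KO arrays lay above all 4 WT arrays, by a narrow margin in females. In KO males Cxcl9 rose by 1.02 ± 0.21, or 2.03-fold (limma adjusted p = 0.0335). In females the difference was 0.51 (95% confidence interval 0 to 1.02, limma adjusted p = 0.203), and the interaction was 0.52 (95% confidence interval -0.21 to 1.24, adjusted p = 0.714). The male call was lost without male KO replicate 1 (0.91, adjusted p = 0.156), male KO replicate 2 (1.13, adjusted p = 0.104), male WT replicate 1 (0.95, adjusted p = 0.119) or male WT replicate 2 (1.09, adjusted p = 0.107), and with no filter on dim probes (1.02, adjusted p = 0.0921). Over both sexes it was 0.76 ± 0.15 (limma adjusted p = 0.0188), lost without male KO replicate 1 (0.71, adjusted p = 0.069), male WT replicate 1 (0.73, adjusted p = 0.0552), male WT replicate 2 (0.80, adjusted p = 0.0525) or female KO replicate 1 (0.65, adjusted p = 0.0556), and with no filter (adjusted p = 0.0543).

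Cxcl10 (NCBI Gene 15945), which lies close to Cxcl9 on chromosome 5 with Art3 between them and shares its receptor, stood at 0.56 and 0.04 in male KO livers, against -0.15 and 0.25 in male WT livers. Among females it was 0.59 and 0.36 in KO livers, against -0.31 and 0.37 in WT livers. The groups overlapped in both sexes. Neither difference passed: 0.25 in males (95% confidence interval -0.46 to 0.97, limma adjusted p = 0.632) and 0.45 among females (95% confidence interval -0.27 to 1.16, adjusted p = 0.391). Whether Cxcl10 differed from Cxcl9 was not tested.

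**Figure D3:**
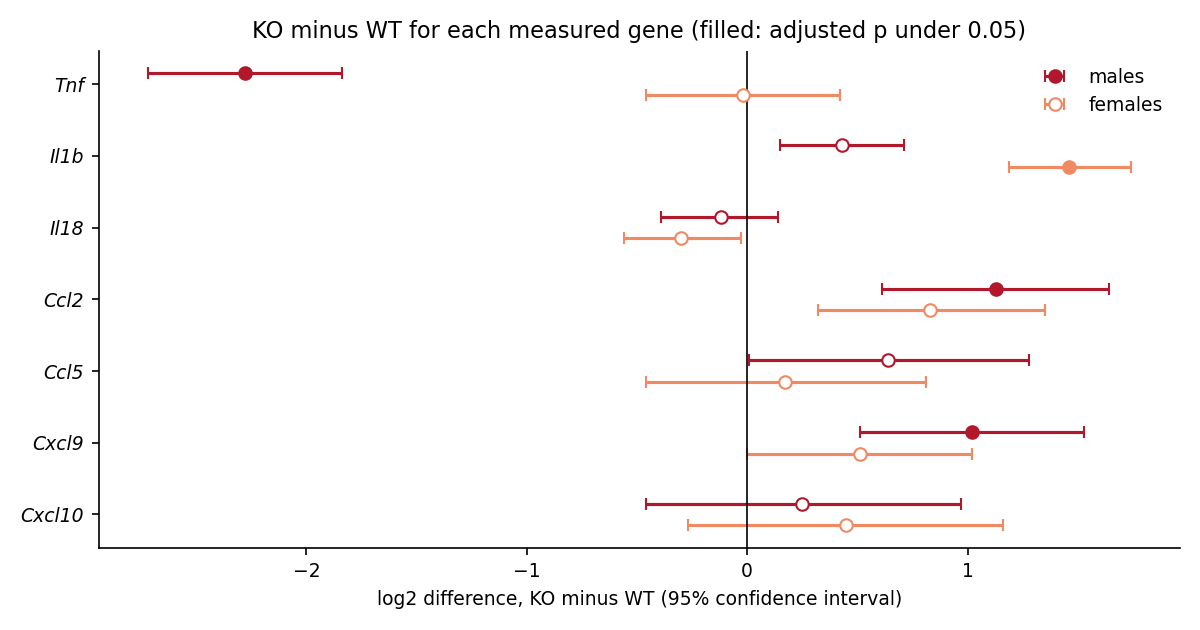
KO-minus-WT log2 difference of each measured gene in males and in females, with 95% confidence intervals, filled where the limma adjusted p was under 0.05. Tnf lies far below 0 in males and at 0 in females, Il1b is highest in females, and Ccl2 and Cxcl9 lie above 0 in males.

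The 4 groups can be ordered within each gene. For Tnf the mean was highest in male WT (1.28), and male KO (-0.99), female WT (-1.01) and female KO (-1.03) followed with gaps of 0.02, within their spread. For Il1b female KO was highest (-0.44), then male KO (-1.79), female WT (-1.90) and male WT (-2.22). The gap of 1.36 between female KO and male KO passed the test above, and the gap of 0.11 between male KO and female WT was not tested. For Ccl2 the order was female KO (-0.15), male KO (-0.57), female WT (-0.99) and male WT (-1.70), with no overlap between neighbours. For Cxcl9 male KO came first (1.80), then female KO (1.38), female WT (0.88) and male WT (0.78), and the last pair overlapped.

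The genes whose levels followed each of these 4 most closely over the 8 arrays, among 15484 named genes, are given as a description with no test, since the 8 points share 4 groups. For Tnf they were C6, a complement component (Pearson r = 0.995), Nat8, an acetyltransferase (r = 0.994), and Nat8f6 (r = 0.991). C6 averaged -0.21 in male KO, 3.72 in male WT, -0.49 in female KO and -0.05 in female WT livers, so it too was high in male WT alone. For Il1b they were Pxylp1 (r = 0.961), Mmp23 (r = 0.957) and Csnk1e (r = 0.948). For Ccl2 they were Zswim6 (r = 0.981), Ackr1, the atypical receptor that binds CCL2 and other chemokines without classical signalling (r = 0.978), and Cd34, a marker of endothelial and progenitor cells (r = 0.978). For Cxcl9 they were Dzip1 (r = 0.981), Ptpre (r = 0.971) and Gdap1l1 (r = 0.965).

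Of 17 measured other chemokine ligands, 1 rose and 1 fell in KO males (11.8%, against 10.7% of all features) and 1 rose in KO females (5.88%, against 5.93%), shares near those of all features, with medians of 0.18 and -0.07. Ccl9, a myeloid-cell attractant, stood at 5.81 and 5.75 in male KO livers, against 4.47 and 4.35 in male WT livers. In females it stood at 5.92 and 5.76 in KO livers, against 4.97 and 4.37 in WT livers. It was high in all KO arrays, and rose by 1.37 ± 0.20 in males (limma adjusted p = 0.0125) and 1.16 ± 0.20 among females (adjusted p = 0.0303). It passed in 14 of 17 alternatives in males and 9 of 17 in females. The call in males was lost without male KO replicate 1, male KO replicate 2 or male WT replicate 2 (1.31 to 1.44 over all 8 such fits), and that in females without any male array or either female KO array (0.86 to 1.46). Ccl25, which attracts gut-homing T cells, fell by 0.74 ± 0.17 in KO males (limma adjusted p = 0.0486) and passed in only 4 of 17 alternatives, lost without any array other than male WT replicate 2 (-0.99 to -0.50). In females its difference was -0.57 and did not pass. Its other, dimmer probes gave -0.83 and -1.09 in males and -0.58 and -1.14 in females, also without passing.

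Of 17 measured other cytokines, 3 rose in KO males and 3 in KO females (17.6% in each, against 10.7% and 5.93% of all features). In either sex 0 fell by limma (1 in each at an unadjusted p under 0.05). The male count includes Il7, which met the filter through male KO livers alone, so the male share is not support either. Il27, which encodes the p28 subunit of IL-27, a regulator of T cells, stood at 2.69 and 2.72 in male KO livers, against 1.12 and 1.3 in male WT livers. The female arrays gave 2.59 and 2.56 in KO livers, against 1.2 and 1.25 in WT livers. The genotypes were apart in both sexes, and Il27 rose by 1.49 ± 0.10 in males (limma adjusted p = 0.000896) and 1.35 ± 0.10 among females (adjusted p = 0.002), past the threshold in 17 of 17 alternatives in each. Il7, a lymphocyte growth factor, stood at -0.89 and -3.56 in male KO livers and was well above background on no other array. It was at least 4.05-fold higher in male KO than in male WT livers, a bound that uses the lowest signal well above background on each array. That bound falls to at least 1.6-fold without male KO replicate 1 and is at least 10.2-fold without male KO replicate 2. Its probe met the filter through male KO livers alone, so its call there (limma adjusted p = 0.0292) is not support of its own. That call passed in 7 of 17 alternatives and was lost without any array other than the male KO pair (adjusted p up to 0.105). In females Tnfsf10, which encodes the death ligand TRAIL, rose by 0.84 ± 0.15 (limma adjusted p = 0.0315) and Il16 by 0.52 ± 0.10 (adjusted p = 0.0397), in 8 and 5 of 17 alternatives. Leaving out any array ended the call of Il16 (0.46 to 0.58), and any but male WT replicate 1 that of Tnfsf10 (0.73 to 0.96). The second, dimmer probe of Il16 gave 0.61 in females without passing (limma adjusted p = 0.307), the same sign as the first, and -0.65 in males, where the first gave 0.32. The median of the other cytokines was 0.36 in males and 0.25 in females, or 0.19 in females with bounded genes at their bound.

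Calls in the list of receptors and soluble inhibitors went in both directions. Of the genes named below, Il1rap, Il1r1 and Tnfrsf1b fell, while the atypical receptor Ackr1 and Ccr2 rose, Ccr2 with a call in females alone. Of 14 measured receptors and soluble inhibitors, 3 rose and 3 fell in KO males, and 2 rose and 2 fell in KO females, with medians of 0.50 and 0.08. These calls were 42.9% and 28.6% of the list, against 10.7% and 5.93% of all features. The list was chosen with earlier results of these data known, so the shares are a description. The female count includes Ccr2, which met the filter through the KO groups alone. Il1rap, the accessory chain that the IL-1 receptor needs to signal, stood at 1.12 and 0.94 in male KO livers, against 3.46 and 3.45 in male WT livers. Its female values were 1.03 and 0.91 in KO livers, against 2.77 and 2.70 in WT livers. The genotypes were far apart in both sexes. Il1rap fell by 2.42 ± 0.11 in KO males (limma adjusted p = 0.000251) and by 1.76 ± 0.11 in KO females (adjusted p = 0.00112), in 17 of 17 alternatives each, and its second probe also passed (-1.98 and -1.49). Il1r1, the chain that binds IL-1, stood at 0.42 and 0.61 in male KO livers, against 1.62 and 1.99 in male WT livers. It fell by 1.28 ± 0.16 in KO males (limma adjusted p = 0.00786), but without male KO replicate 1 the difference was -1.19 (adjusted p = 0.0512). In females the difference was -0.75 and did not pass (limma adjusted p = 0.0547).

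Tnfrsf1b, the second TNF receptor, stood at -1.74 and -1.51 in female KO livers, against -0.20 and -0.20 in female WT livers. It fell by 1.43 ± 0.16 in KO females (limma adjusted p = 0.00844), and without female KO replicate 1 the difference was -1.31 (adjusted p = 0.0552). In KO males it fell by 0.74 ± 0.16 (limma adjusted p = 0.04). Tnfrsf1a, the receptor found on most cells, gave 0.41 ± 0.10 in males (limma adjusted p = 0.0502) and 0.31 among females (adjusted p = 0.119), neither past the threshold. It was named, as Cxcr3, Il6ra and Il18bp below, because it pairs with one of the 10 genes, with its values known. Ccr2, the receptor of CCL2 and CCL7, was at least 1.95-fold higher in female KO livers than in female WT livers, where it was not well above background (limma adjusted p = 0.0286), and passed in 10 of 17 alternatives, lost without either female KO array or female WT replicate 2 (adjusted p up to 0.144). Its probe met the filter through the KO groups alone, so that call too is not support of its own. In males Ccr2 was at least 1.64-fold higher in KO than in WT livers, where it was not well above background. That difference missed the threshold (limma adjusted p = 0.055 with probes fitted singly). Ackr1 rose by 0.83 ± 0.14 in KO males (limma adjusted p = 0.0187) and 0.69 ± 0.14 in KO females (adjusted p = 0.0441), and in males it passed in 12 of 17 alternatives, lost without any male array (0.78 to 0.87). Its second probe gave 0.65 and 0.51 without passing. For Cxcr3 the difference was 0.39 ± 0.19 in males (limma adjusted p = 0.253) and 0.18 among females (adjusted p = 0.599). For Il6ra it was 0.57 ± 0.15 in males (limma adjusted p = 0.0618) and 0 among females (adjusted p = 0.997). Il18bp, the soluble inhibitor of IL-18, gave 0.45 ± 0.17 in males (limma adjusted p = 0.146) and 0.12 among females (adjusted p = 0.697).

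**Figure D4:**
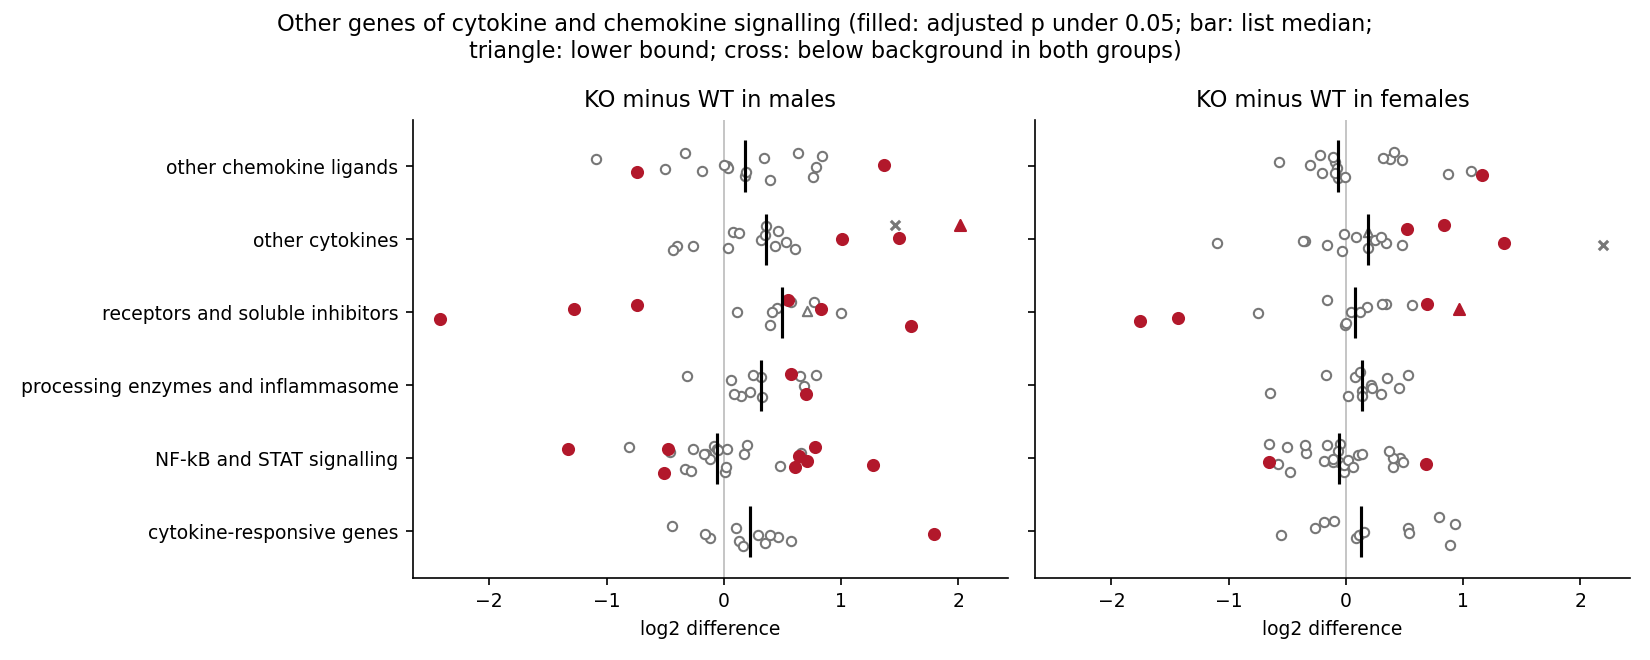
KO-minus-WT log2 difference of each measured gene of 6 other lists in males (left) and females (right), filled where the limma adjusted p was under 0.05, with a bar at the list median, triangles at lower bounds and crosses for genes below background in both groups. Receptors reach lowest, with Il1rap at -2.42 in males and -1.76 in females, and the medians lie between -0.07 and 0.50.

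Of 13 measured processing enzymes and inflammasome genes, 2 rose in KO males (15.4%, against 10.7% of all features). In KO females 0 passed by limma, where 5.93% of all features passed. There 3 of the 13 had an unadjusted p under 0.05, as had 6611 of the 26556 features. The genes that rose were Ly96, which encodes MD-2, the partner of the endotoxin receptor TLR4 (0.70 ± 0.12, limma adjusted p = 0.0192, with 0.12 by its second probe), and Rhbdf2, which guides the TNF-releasing protease ADAM17 (0.57 ± 0.12, adjusted p = 0.0411). They passed in 10 and 9 of 17 alternatives. Ly96 was lost without any male array (0.59 to 0.81), and Rhbdf2 without any male array or either female WT array (0.56 to 0.58). Of 26 NF-kB and STAT signalling genes, 5 rose and 3 fell in KO males (30.8%, against 10.7% of all features), and 1 rose and 1 fell in KO females (7.69%, against 5.93%), with medians of -0.06 and -0.05. Irf1, an interferon-induced transcription factor, rose by 0.61 ± 0.10 in males (limma adjusted p = 0.0191) and 0.68 ± 0.10 among females (adjusted p = 0.0213), in 11 and 9 of 17 alternatives, while its second, dimmer probe gave 0.17 in males and 0.90 in females. Rel, an NF-kB subunit, rose by 0.64 ± 0.11 in males (limma adjusted p = 0.0208), and Irak3, an inhibitor of IL-1 and Toll-like receptor signalling, by 1.27 ± 0.25 (adjusted p = 0.0287). Both were dim and passed in 11 and 9 of 17 alternatives. The second probe of Irak3 was read well above background on no male array, so its 0.08 gives no direction. Leaving out any male array ended the calls of Irf1 (0.58 to 0.65) and Rel (0.57 to 0.71) in males, and leaving out male KO replicate 2, either male WT array or female WT replicate 2 that of Irak3 (0.99 to 1.54). In females the call of Irf1 was lost without any of 6 of the 8 arrays (0.58 to 0.77) and that of Chuk without any of 7 (-0.76 to -0.57). Chuk, a kinase of the NF-kB pathway, fell by 0.66 ± 0.11 in KO females (limma adjusted p = 0.0292), in 8 of 17 alternatives, and by 0.51 in KO males (adjusted p = 0.0416).

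Of 12 measured cytokine-responsive genes, 0 passed in KO females by limma, where 5.93% of all features passed. There 2 of the 12 had an unadjusted p under 0.05, as had 6611 of the 26556 features. The medians were 0.22 in males and 0.13 in females. In KO males 1 gene rose (8.33%, against 10.7% of all features). It was Lcn2, which encodes the iron-binding acute-phase protein lipocalin-2. Lcn2 stood at 2.40 and 1.95 in male KO livers, against 0.07 and 0.70 in male WT livers. Its rise was 1.79 ± 0.25 (limma adjusted p = 0.0111), and 1.56 without male KO replicate 1 (adjusted p = 0.0579). The serum amyloid A gene Saa1, a classical target of IL-6 and IL-1 named here for comparison with its values known, gave -0.12 in males (limma adjusted p = 0.847) and 0.93 among females (adjusted p = 0.146).

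Other settings ended many of these calls. Of the 23 calls named from the lists beside the 10 genes, 15 were lost with no filter on dim probes and 11 when only the groups compared were fitted. With normexp 4 were lost and 9 moved by over 1.5 times, which were those of Ccr2 (0.19), Irak3 (0.19), Rel (0.15), Il7 (0.74), Il16 (0.31), Ltb (0.57), Tnfsf10 (0.52), Ackr1 in males (0.48) and Tnfrsf1b in females (-0.79). With the mean of a gene's kept probes 5 were lost, among them Ly96 (0.41), Irak3 (0.67) and Irf1 in males (0.39). With dim values raised to the lowest signal well above background, Il7 gave 2.02 and Ccr2 0.96, and both calls were lost.

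Among WT livers, 0 genes of the 6 lists plotted passed between males and females by limma, where 0.964% of all features passed. This count takes the 1 probe that stands for each gene. A second, dimmer Lcn2 probe was lower in males and passed (-1.67, limma adjusted p = 0.0226), while the main one gave -1.52 without passing. At an unadjusted p under 0.05 there were 1 of the 17 chemokine ligands, 6 of the 17 cytokines and 4 of the 14 receptors. So were 4 of the 13 processing enzymes, 5 of the 26 signalling genes and 3 of the 12 responsive genes. Of all 26556 features, 4782 were under 0.05 in that comparison.

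Markers of the cell types that make or answer these cytokines moved as follows, and their part in the results above was not tested. Of all 26556 features, 10.7% passed in KO males and 5.93% in KO females. At an unadjusted p under 0.05 by limma there were 7226 and 6611. Of 14 macrophage and Kupffer cell markers, 0 passed in either sex by limma, also at an unadjusted p under 0.05, with medians of 0.14 in males and 0.05 in females and 11 and 8 of the 14 above 0. Their summed level was 145 to 184 in male KO, 140 to 149 in male WT, 157 to 178 in female KO and 160 to 161 in female WT livers. Of 4 measured monocyte markers, Ly6c2 rose in KO males by 1.96 ± 0.28 (limma adjusted p = 0.0113) and Ccr2 in KO females, while Chil3 and F13a1 were not above background. Ccr2 was higher in KO males too, without passing. Ly6c2 gave -0.66 in females without passing (limma adjusted p = 0.21), and among WT livers it was lower in males than in females (-2, limma adjusted p = 0.0419). The summed level of the 4 was 238 to 242 in male KO, 216 to 228 in male WT, 239 to 244 in female KO and 288 to 313 in female WT livers. Fn1, which hepatocytes also express, made up 84.3% to 95.6% of that sum, and without it the level was 29.3 to 37.4 in male KO, 9.57 to 11.9 in male WT, 19.4 to 28.4 in female KO and 32.7 to 33.9 in female WT livers. Of 11 T and NK cell markers 0 passed in either sex by limma (1 in males and 2 in females at an unadjusted p under 0.05), and their summed level was 26.1 to 36.0 in male KO, 35.2 to 38.8 in male WT, 19.2 to 21.4 in female KO and 19.9 to 33.5 in female WT livers. Cd4 made up 63.9% to 83.8% of that sum, and the median difference of the list was 0.40 in males, with 8 of 11 above 0, and 0.01 in females, with 6 above 0. Ncr1, an NK cell marker, was not above background. Of 7 neutrophil markers 0 passed in either sex by limma (0 in males and 1 in females at an unadjusted p under 0.05).

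Some B and plasma cell markers and endothelial markers rose in the KO livers. Of 7 B and plasma cell markers 4 rose in KO males and 2 in KO females (57.1% and 28.6%, against 10.7% and 5.93% of all features). Sdc1, which also marks epithelia, had the smallest adjusted p in both (1.48 and 1.37). The summed level of the 7 was 28.8 to 32.0 in male KO, 10.6 to 11.6 in male WT, 31.6 to 32.1 in female KO and 12.6 to 13.1 in female WT livers. Sdc1 made up 88.7% to 92.8% of that sum, and without it the level was 2.31 to 2.38 in male KO, 0.991 to 1.11 in male WT, 2.32 to 2.36 in female KO and 1.32 to 1.48 in female WT livers. Of 8 endothelial markers 3 rose in KO males and 1 in KO females (37.5% and 12.5%, against 10.7% and 5.93% of all features), Vwf by 2.63 and 1.15. Their summed level was 107 to 114 in male KO, 72.4 to 75.5 in male WT, 104 to 108 in female KO and 88.6 to 96.0 in female WT livers. Clec4g made up 50.6% to 60.9% of that sum. Without it the level was 49.5 to 56.3 in male KO, 29.4 to 31.7 in male WT, 49.7 to 50.5 in female KO and 37.5 to 38.5 in female WT livers. The median difference of the endothelial list was 0.31 in males (-0.17 to 2.63) and 0.05 in females (-0.40 to 1.15). Of 12 hepatocyte markers, Ttr alone passed within males and within females (8.33% in each, against 10.7% and 5.93% of all features). It fell in both (-0.50 and -0.56). Over both sexes 2 of the 12 rose and 1 fell, where 19.8% of all features passed.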

How the data were processed

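RNA of 8 whole-liver samples was measured on one-colour Agilent arrays. The intensity values deposited by the authors are background-subtracted processed signals. Per the file headers they come from Agilent's Feature Extraction software, version 11.5.1.1, whereas 9.1.3.1 stands in the submitters' processing notes. The deposited value table holds log2 values that equalled the log2 processed signal minus 1 constant per array (6.99 to 7.30), within 0.01 for 100% of the probes compared.

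Spots called uneven or outliers (55 to 139 an array) were left out, spots of a probe were averaged, and the log2 signals were set relative to the array's 75th percentile. This percentile was first taken over spots and, after results of that fit had been seen, over probes, as in the deposited value table, and unnamed probes were then merged by accession. No member's call differed between the percentiles. Probes were kept (33586) where some group had both its arrays well above background, and the kept probe with the highest mean stood for its gene (5332 genes had several). A model of 4 group means was fitted to the 8 arrays with limma 3.58.1 (R 4.3.3), with 4 residual and 2.07 prior degrees of freedom. Benjamini-Hochberg adjustment ran over 26556 features. The fit was tested on simulated data. A fold written "at least" raises the lower group's values to the lowest signal well above background on each array. Gene names and promoter sequences are RefSeq's on GRCm38.p6; the arrays are annotated on mm9, so no probe coordinates are given. The 10 genes and all lists were chosen with earlier results of these data known. From each list the text names up to 3 genes with the smallest adjusted p among those that passed in each of 3 comparisons (KO against WT in each sex, and the sexes within WT), and for each of the 10 genes that passed somewhere the 3 genes most correlated with it. Same-numbered replicates did not deviate together (correlations of 0 to 0.10), so no replicate block was used. Alternatives covered background correction, scaling, filtering, probe choice, the groups fitted and each array left out.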

Additional observations from a re-analysis of the deposited data

How the results depend on the processing

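Of the 10 genes, only the 7 measured were tested in the main fit. Of these 7, 3 passed in KO against WT males, 1 in KO against WT females, 1 in males against females of WT, 1 in males against females of KO, 0 in the interaction and 4 over both sexes. In the same order, 10.7%, 5.93%, 0.964%, 0.0828%, 0.192% and 19.8% of all features passed. With no filter on dim probes the counts were 1 in males and 0 in males against females of KO. Of the 7, Cxcl9 also lost its call over both sexes there (limma adjusted p = 0.0543). With normexp background correction they were 2 in females (Il1b and Ccl2), 0 in males against females of KO and 1 in the interaction (Tnf). With the mean of a gene's kept probes they were 0 in females and 0 in males against females of KO. Over both sexes Il1b lost its call with that mean (limma adjusted p = 0.0545). When only the groups compared were fitted they were 0 in males against females of WT and 0 in males against females of KO. With dim values raised to the lowest signal well above background, added after seeing the data, the interaction count was 1. Leaving out each array in turn gave 1 to 3 in males, 0 to 1 in males against females of KO, 0 to 1 in the interaction and 3 to 4 over both sexes. The cause of these changes was not tested.

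With the replicate number as a block (replicate block), the paired fit gave 2 in males, where Cxcl9 kept 1.02 with an adjusted p of 0.0589, and it changed no other call of the 10 genes. Differences near 0 changed sign. For males against females of WT, Cxcl10 was -0.08 with normexp and 0 with the percentile over spots, an alternative added after seeing the data. For males against females of KO, Il18 was -0.02 with normexp and -0.01 with quantile normalization. Leaving out each array in turn, the KO-minus-WT difference ran between -0.01 and 0.51 for Cxcl10 in males, -0.22 and 0.17 for Tnf in females and -0.14 and 0.48 for Ccl5 in females. The males-minus-females difference in WT ran between -0.31 and 0.11 for Cxcl9 and -0.32 and 0.36 for Cxcl10. In KO it ran between -0.02 and 0.10 for Tnf, -0.01 and 0.07 for Il18, -0.38 and 0.09 for Ccl5 and -0.43 and 0.09 for Cxcl10, and the interaction of Cxcl10 between -0.54 and 0.15. None of these had passed the test.

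The number of arrays (8) limits the precision, and the dim probes of Il6, Ccl3 and Ccl7 give no level. The Tnf values rest on 1 probe.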
